A study of Mus musculus with 60 samples.

Results

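The CL6G36 and CL6G26 cells are sublines of P19CL6, a subclone of the mouse embryonal carcinoma line P19, and they were compared with each other here without any array of P19CL6 in the contrast. The arrays were chosen by their labels, which give 5 replicates of CL6G36 and 5 of CL6G26, each measured on the oligonucleotide arrays MOE430A and MOE430B. This makes 20 of the 60 arrays of the series. All cells were undifferentiated, came from a line derived from a male C3H mouse embryo, and were cultured in alpha-MEM plus fetal calf serum with no other agent named. The labels do not say what CL6G36 and CL6G26 were isolated for, whether each is a single clone, or whether replicates came from separate cultures, so p-values reflect only how these samples vary, which may be partly technical. The other strains, CL6G45, CL6G52, P19CL6 and P19, entered the fit only for the spread and are quoted as levels.

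Embryonal carcinoma cells, the stem cells of teratocarcinomas, are pluripotent. They resemble the early epiblast, respond to Nodal, FGF and Wnt signals that pattern the primitive streak, and express Oct4 and Sox2. P19CL6 is known for its efficient differentiation into beating cardiomyocytes. Cells that make many secreted or membrane proteins, or that run short of amino acids, switch on the unfolded protein response of the endoplasmic reticulum and the integrated stress response, which act through the transcription factors XBP1, ATF6, ATF4 and CHOP.

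Both sublines had the transcripts of embryonal carcinoma cells. Pou5f1, which encodes Oct4, had a mean log2 signal of 11.59 ± 0.08 in CL6G36 and 11.50 ± 0.08 in CL6G26 (SD, n = 5 each), a difference of 0.09 with a 95% interval of -0.03 to 0.21. Lin28a, an RNA-binding protein of pluripotent cells, differed by -0.02 (95% interval -0.11 to 0.06) and the DNA methyltransferase gene Dnmt3b by -0.05 (-0.25 to 0.16). Sox2 missed the threshold with a difference of 0.36 (95% interval 0.10 to 0.63, limma, adjusted p = 0.0514) and passed it under 6 of 21 alternatives, the lowest adjusted p being 0.0248. Of these 6 markers 2 passed the test. Utf1, a chromatin factor of pluripotent cells, was higher in CL6G36 by 0.43 ± 0.10 (SE, adjusted p = 0.00322), and Nanog was lower.

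Nanog, a transcription factor of the pluripotency network, read 7.77, 8.08, 7.60, 7.73 and 7.14 in CL6G36, against 8.87, 8.77, 8.67, 8.78 and 8.68 in CL6G26. All 5 CL6G36 values lay below all 5 CL6G26 values. The difference was -1.09 ± 0.12 (SE, adjusted p = 4.74e-08).

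After the filter on dim probe sets 13181 genes were tested, 8906 through a MOE430A probe set and 4275 through a MOE430B one. Median array signals before normalization ran from 30.2 to 43.7 in CL6G36 and from 35.3 to 53.4 in CL6G26 on MOE430A, and from 11.4 to 14.1 in CL6G36 and from 10.6 to 14 in CL6G26 on MOE430B. Control ratios of Gapdh signal at the 3' end over the 5' end, which track RNA degradation, were 0.820 to 0.927 in CL6G36 and 0.829 to 0.883 in CL6G26 on MOE430A. On MOE430B they were 0.802, 0.801, 0.864, 0.806 and 0.809 in CL6G36, against 0.830, 0.839, 0.876, 0.839 and 0.837 in CL6G26. All CL6G36 arrays but replicate 3 thus lay below every CL6G26 array on MOE430B, and the part of this ratio in the differences was not tested. The number of arrays limits the precision. The floor, the log2 signal below which a value was taken as a bound, was 4.61 on MOE430A and 4.15 on MOE430B. In the series as a whole some P19 replicates and CL6G52 replicate 1 stood apart from their strains, so the count of genes was also taken from a fit on the 10 arrays of CL6G36 and CL6G26 alone.

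CL6G36 differed from CL6G26 in 195 genes at an adjusted p under 0.05 and at least 2-fold, which is 1.48% of the genes tested. Of these, 105 were higher in CL6G36 (0.797%) and 90 were lower (0.683%). The fit on the arrays of CL6G36 and CL6G26 alone called 107 higher and 84 lower. The deposited scaling, without quantile normalization, called 72 higher and 129 lower, a share higher of 35.8% against 53.8%, and put the median difference over all genes at -0.11 against 0.01. By adjusted p alone 1856 genes passed, 14.1% of those tested, with 1011 higher (7.67%) and 845 lower (6.41%). The values of CL6G36 and CL6G26 did not overlap for 1723 genes (13.1%), with 7.24% of all tested genes higher and 5.83% lower in this way, and 158 of the 195 called genes belonged to these. Among called genes 88 exceeded the floor on all 10 arrays, and 18 lay above it on every array of one subline and under it on every array of the other, 8 on the side of CL6G36 and 10 on that of CL6G26. A further probe set was tested for 72 of the called genes. It had the same sign in 64, passed in the same direction in 32 and passed in the opposite direction in 0.

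**Figure D1:**
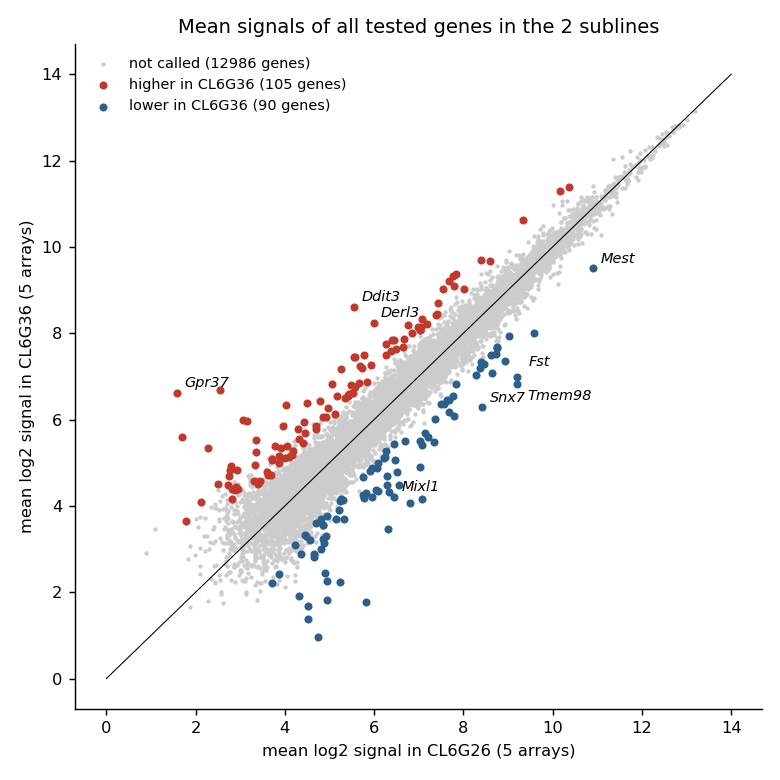
Mean log2 signal of each tested gene in CL6G36 (vertical axis) against CL6G26 (horizontal axis), 5 arrays each; red points are the 105 genes called higher in CL6G36, blue points the 90 called lower, and the line marks equal means. Ddit3 and Gpr37 lie far above the line, and Tmem98, Fst, Snx7 and Mixl1 far below it; means under the floor of 4.61 on MOE430A or 4.15 on MOE430B are not resolved.

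The genes given as markers of these sublines were Derl3, Fst, Snx7 and Tmem98, and all 4 differed. No source for their choice was named, so their differences are not independent support. Derl3, which helps move misfolded proteins out of the endoplasmic reticulum for degradation, read 8.19, 7.59, 8.37, 8.44 and 8.64 in CL6G36, against 5.97, 5.65, 6.47, 6.04 and 5.80 in CL6G26. The CL6G36 values were all above the CL6G26 values, by a log2 difference of 2.26 ± 0.26 (SE, adjusted p = 2.29e-07), a 4.79-fold difference. Fst encodes follistatin, a secreted protein that binds and blocks activin, and read 7.33, 7.31, 7.02, 6.73 and 6.58 in CL6G36, against 9.26, 9.26, 9.27, 9.10 and 9.15 in CL6G26. CL6G36 was lower on every array, with a difference of -2.21 ± 0.19 (SE, adjusted p = 1.16e-09), and a second Fst probe set, on MOE430B, gave -2.47.

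Snx7, a sorting nexin of endosomal traffic, read 6.64, 6.47, 6.52, 6.41 and 5.40 in CL6G36, against 8.45, 8.39, 8.18, 8.42 and 8.69 in CL6G26. CL6G36 replicate 5 was the lowest, and every CL6G36 value lay below every CL6G26 value, by -2.14 ± 0.24 (SE, adjusted p = 2.7e-07). Tmem98, a membrane protein gene, read 6.59, 7.30, 6.69, 6.85 and 6.66 in CL6G36, against 9.22, 9.36, 8.90, 9.18 and 9.34 in CL6G26. It was 5.2-fold lower in CL6G36, with a difference of -2.38 ± 0.21 (SE, adjusted p = 2.01e-09) and no overlap. Beside the 4 strains not compared here these markers differed in which subline stood apart. The Tmem98 mean of CL6G36, 6.82, lay below all other strain means, which ran from 8.39 to 9.54, whereas the Snx7 mean of CL6G26, 8.43, lay above all others, from 6.09 to 7.07.

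**Figure D2:**
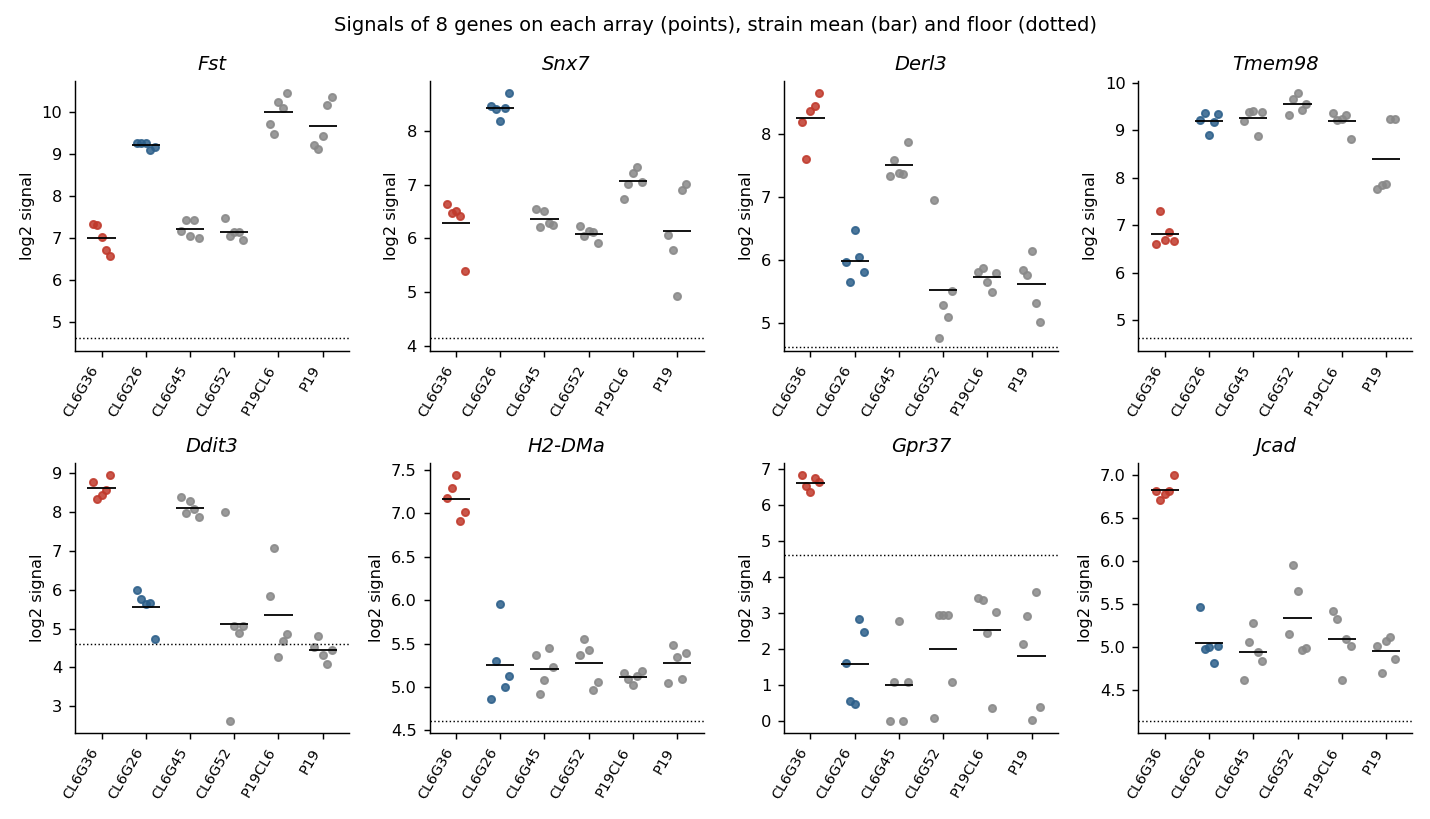
Log2 signal of 8 genes on each array (points) in CL6G36, CL6G26 and the other 4 strains, with the strain mean as a bar and the floor as a dotted line; vertical axes differ between panels. CL6G36 stands apart from every other strain for Tmem98, H2-DMa, Gpr37 and Jcad, CL6G26 for Snx7, and the Derl3 and Ddit3 means of CL6G45, 7.50 and 8.12, lie nearer to CL6G36 than to CL6G26.

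Genes of the integrated stress response were higher in CL6G36. Of 19 targets listed, 16 were tested, 13 were higher, 0 were lower and 3 did not pass, while 7.67% of all genes were higher. The median difference of the tested targets was 0.86, against 0.01 over all genes. With the deposited scaling 7 of the 16 were higher and the median was 0.63. When each deposited array was centred on its median, an alternative chosen after the data were seen, 12 were higher.

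Ddit3, counted among the sensors and factors below, encodes CHOP, a transcription factor induced by prolonged stress, and read 8.77, 8.34, 8.45, 8.57 and 8.95 in CL6G36, against 6.0, 5.77, 5.64, 5.66 and 4.72 in CL6G26. CL6G26 replicate 5 was the lowest of its group, and all CL6G36 values exceeded all CL6G26 values. The difference of 3.06 ± 0.53 (SE, adjusted p = 0.000108), 8.34-fold, exceeded every other increase among genes whose 10 arrays all lay above the floor. Trib3, a pseudokinase induced by ATF4 and CHOP, read 8.57, 8.84, 8.77, 8.44 and 8.83 in CL6G36, against 7.63, 7.28, 7.54, 7.36 and 7.36 in CL6G26. It was higher in CL6G36 by 1.26 ± 0.27 (adjusted p = 0.000963) without overlap.

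Stc2, a secreted glycoprotein induced by stress, read 8.99, 9.45, 9.18, 9.20 and 9.20 in CL6G36, against 7.63, 7.63, 7.93, 7.57 and 7.67 in CL6G26. Cebpb, a transcription factor that partners ATF4 and CHOP, read 8.09, 7.94, 8.23, 8.23 and 8.42 in CL6G36, against 6.90, 6.46, 6.56, 6.92 and 6.91 in CL6G26. In both genes the sublines did not overlap, and the differences were 1.52 ± 0.33 for Stc2 (adjusted p = 0.0011) and 1.44 ± 0.23 for Cebpb (adjusted p = 3.14e-05). Bbc3, which encodes the apoptosis inducer PUMA, was higher by 1.20 ± 0.16 and Sesn2, a sensor that restrains mTORC1, by 1.0 ± 0.13. Ppp1r15a, the phosphatase subunit GADD34 that ends the response, was higher by 0.92 ± 0.17 and the transcription repressor gene Jdp2 by 0.92 ± 0.19, though the mean of its probe sets did not pass. Atf5, a transcription factor translated under stress, was higher by 0.91 ± 0.17. The other 5 targets that passed were higher by 0.35 to 0.82, and the 3 that did not pass, Atf3, Vldlr and Chac1, differed by 0.74, 0.36 and 0.07.

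Among 14 sensors and factors of the unfolded protein response the test was passed by 4, all higher, against 7.67% of all genes higher and 6.41% lower, with a median difference of 0.21. One of them was Ddit3. Atf4, the central factor of the integrated stress response, read 11.17, 11.01, 10.97, 10.94 and 10.99 in CL6G36, against 10.65, 10.66, 10.64, 10.46 and 10.43 in CL6G26. Its CL6G36 values were all higher, by 0.45 ± 0.10 (adjusted p = 0.00242). A dimmer Atf4 probe set, of the kind that can match several transcripts, gave 0.09 and did not pass (limma, adjusted p = 0.714). Atf6, a sensor released from the membrane to act in the nucleus, was higher by 0.54 ± 0.13 (adjusted p = 0.00319), and Xbp1, the factor spliced by IRE1, by 0.49 ± 0.16 (adjusted p = 0.033). Xbp1 missed the threshold under 12 of 21 alternatives, among them without any of CL6G36 replicates 3 to 5 or CL6G26 replicates 2 to 5 (highest adjusted p over all alternatives 0.556). An Xbp1 probe set of similar brightness gave 0.62 (adjusted p = 0.00427), and dimmer ones gave 0.21 and 0.15 and did not pass. The sensors Ern1 and Eif2ak3, which encode IRE1 and PERK, differed by -0.01 and 0.30 and did not pass. Of the 14, Ddit3 alone passed with the deposited scaling.

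Chaperones and folding enzymes of the endoplasmic reticulum were mostly higher in CL6G36. All 24 members listed were tested, 16 were higher, 1 was lower and 7 did not pass, against 7.67% of all genes higher and 6.41% lower, with a median difference of 0.45. Of the 17 listed genes of endoplasmic reticulum-associated degradation, which returns misfolded proteins to the cytosol, 16 were tested, 9 were higher and 1 was lower, with a median of 0.41. With the deposited scaling these counts were 3 higher and 1 lower among chaperones and 2 higher and 0 lower in degradation, at medians of 0.22 and 0.23. With deposited arrays centred on their medians they were 15 and 1, and 9 and 1.

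Creld2, a secreted protein known as a target of this response, read 9.79, 9.55, 9.60, 9.68 and 9.86 in CL6G36, against 8.37, 8.44, 8.49, 8.25 and 8.42 in CL6G26. Herpud1, a membrane component of the degradation complex, read 8.97, 9.20, 8.86, 8.96 and 9.11 in CL6G36, against 8.17, 7.47, 7.43, 7.31 and 7.27 in CL6G26. CL6G26 replicate 1 was the highest of its group for Herpud1, and still below all CL6G36 values. The differences were 1.30 ± 0.14 for Creld2 (adjusted p = 3.91e-08) and 1.49 ± 0.35 for Herpud1 (adjusted p = 0.00262), and a second Herpud1 probe set gave 1.96. Ero1b, an oxidase that feeds disulfide bond formation, was higher by 1.21 ± 0.27 (adjusted p = 0.00162). The chaperone cofactor gene Sdf2l1 was higher by 0.77 ± 0.11, Manf, a secreted survival factor held by the chaperone BiP, by 0.76 ± 0.12, and the disulfide isomerase gene Pdia4 by 0.70 ± 0.15. Dnajb11 and Dnajc3, cochaperones of BiP, were higher by 0.70 ± 0.15 and 0.61 ± 0.17, and Txndc11, a thioredoxin-like gene, by 0.67 ± 0.21, a call lost without CL6G36 replicate 1 or CL6G26 replicate 2 or 4.

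In the degradation pathway Selenos, a selenoprotein of the retrotranslocation complex, was higher by 0.71 ± 0.10 and Syvn1, its ubiquitin ligase HRD1, by 0.68 ± 0.10. Erlec1, a lectin that binds misfolded glycoproteins, was higher by 0.66 ± 0.13 and Edem1, which marks glycoproteins for degradation, by 0.63 ± 0.13. A second Edem1 probe set gave 0.04 and did not pass (limma, adjusted p = 0.915). With the mean of probe sets 6 degradation genes were higher and 0 lower. Derl1, a relative of Derl3, was higher by 0.44 ± 0.11, and the ubiquitin-conjugating enzyme gene Ube2j1 by 0.43 ± 0.14, a call lost under 7 of 21 alternatives. The sublines did not overlap for 11 of the 24 chaperone genes and 9 of the 16 degradation genes, all higher in CL6G36, while 7.24% of all genes were higher without overlap. The members lower in CL6G36 were Ppib, a prolyl isomerase, at -0.25, and Ube2g2, a ubiquitin-conjugating enzyme, at -0.33. Members that did not pass ran from -0.11 to 0.26 among chaperones and from -0.09 to 0.32 in degradation.

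The factors ATF6 and XBP1 are known to bind the endoplasmic reticulum stress element, ERSE, which is CCAAT, 9 bases of any kind and CCACG, and a shorter form, ERSE-II, which is ATTGG, any 1 base and CCACG. Both were searched on both strands of the 250 bases before RefSeq gene starts (GRCm38.p6). ERSE was found in 37 of 32851 promoters (0.113%) and ERSE-II in 10 (0.0304%), and no gene held both. Of the 10620 tested genes with a promoter entry, 17 held ERSE. Of these 9 were higher in CL6G36, 0 were lower and 8 did not pass, against 7.67% of all genes higher and 6.41% lower. The 9 were Derl3, Creld2, Ero1b, Syvn1, Dnajc3, Pdia6, Hspa5, Alg12 and Calr. All but Alg12 are members of the chaperone and degradation lists above, so this count largely repeats those lists. Those that did not pass include the chaperone genes Hsp90b1 and Canx, at 0.20 and -0.05. Outside the lists, Acacb, Adcy3, Pan2, Tdrd9, Zfp57 and 4930402F11Rik did not pass, at -0.76 to -0.01. A second Hsp90b1 probe set of similar brightness was higher in CL6G36, at 0.59 (adjusted p = 7.58e-06), so its probe sets disagree. Of the 6 tested genes with ERSE-II, Herpud1 was higher, Lgalsl, a galectin-like gene, was lower at -0.64 and 4 did not pass. A match is a description of these letters and not of a bound site.

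The windows shown are those of the 3 ERSE genes called at least 2-fold higher in CL6G36, of the chaperone genes Hspa5 and Pdia6, and of Herpud1 for ERSE-II, shown because they are the promoters of endoplasmic reticulum genes described above. Each is written 5' to 3' on the gene's strand, which is the plus strand in all 6, with the motif in capitals; CGTGG, 9 bases and ATTGG is ERSE read from the other strand.
Derl3, chr10:75893222-75893280: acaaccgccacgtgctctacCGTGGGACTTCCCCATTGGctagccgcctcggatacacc
Creld2, chr15:88819500-88819558: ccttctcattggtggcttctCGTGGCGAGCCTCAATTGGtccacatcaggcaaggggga
Ero1b, chr13:12565662-12565720: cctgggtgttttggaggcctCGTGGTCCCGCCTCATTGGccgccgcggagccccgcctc
Hspa5, chr2:34772005-34772063: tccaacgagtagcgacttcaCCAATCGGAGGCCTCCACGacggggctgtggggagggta
Pdia6, chr12:17266471-17266529: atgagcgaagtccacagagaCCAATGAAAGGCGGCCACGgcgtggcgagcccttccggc
Herpud1, chr8:94386357-94386407: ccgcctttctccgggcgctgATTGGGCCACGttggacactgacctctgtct

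Hspa5, which encodes BiP, the main chaperone of the compartment, read 12.01, 12.15, 12.25, 12.33 and 12.34 in CL6G36, against 11.82, 11.74, 11.74, 11.68 and 11.73 in CL6G26. Every CL6G36 value lay above every CL6G26 value, and the difference was 0.47 ± 0.10 (SE, adjusted p = 0.00127). Pdia6, a disulfide isomerase, was higher by 0.51 ± 0.08 (adjusted p = 3.18e-05), Alg12, a mannosyltransferase of glycan assembly, by 0.43 ± 0.14 and Calr, the lectin chaperone calreticulin, by 0.31 ± 0.10. Calr and Alg12 overlapped between the sublines and missed the threshold under 9 and 8 of 21 alternatives. These 4 genes were named for their motif.

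Enzymes of serine synthesis and the folate cycle and amino acid transporters, many of them known ATF4 targets, were higher in CL6G36. Of 27 listed, 26 were tested, 16 were higher, 0 were lower and 10 did not pass, against 7.67% of all genes higher and 6.41% lower, with a median of 0.43. Aldh1l2, a mitochondrial folate enzyme, was at 6.80 ± 0.21 in CL6G36 and 5.48 ± 0.24 in CL6G26 (SD, n = 5 each), a difference of 1.32 ± 0.24 (SE, adjusted p = 0.000771). Slc6a9, a glycine transporter, was at 8.14 ± 0.19 in CL6G36 and 6.98 ± 0.13 in CL6G26, a difference of 1.15 ± 0.18 (adjusted p = 1.87e-05). Neither gene overlapped between the sublines. The neutral amino acid transporter gene Slc1a4 was higher by 0.87 ± 0.15, the mitochondrial PEP carboxykinase gene Pck2 by 0.83 ± 0.16, the proline synthesis enzyme gene Aldh18a1 by 0.79 ± 0.14 (0.08, 0.25 and 0.64 on brighter probe sets, the first 2 not passing) and the serine phosphatase gene Psph by 0.66 ± 0.13. Slc7a5, a leucine transporter, was higher by 0.54 ± 0.11, and Slc7a1, a cationic amino acid transporter, by 0.60 ± 0.20, a call lost under 10 of 21 alternatives. A pair of brighter MOE430B probe sets gave 1.06 and 0.79 for Slc7a1, and both passed.

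Cytosolic aminoacyl-tRNA synthetases, which charge tRNAs with amino acids, were higher for 8 of the 19 tested, lower for 0 and did not pass for 11, against 7.67% of all genes higher and 6.41% lower, with a median of 0.23. Sars, for serine, was at 11.07 ± 0.06 in CL6G36 and 10.32 ± 0.07 in CL6G26, a difference of 0.76 ± 0.11 (adjusted p = 1.38e-05). Gars, for glycine, Eprs, for glutamate and proline, and Lars, for leucine, were higher by 0.52 ± 0.11, 0.51 ± 0.08 and 0.44 ± 0.07. Aars, Tars, Nars and Vars were higher by 0.23 to 0.41, and Vars lost its call under 12 of 21 alternatives besides reversing with the deposited scaling. Without CL6G36 replicate 5 Aars and Tars did not pass (adjusted p = 0.0599 and 0.0749). With the deposited scaling 0 of the synthetases passed, with a median of 0.003, and 2 of the serine, folate and transport genes did. With deposited arrays centred on their medians the counts were 5 and 15, all higher.

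The heat shock proteins of the cytosol and mitochondria did not move one way. Of 12 tested, 3 were higher in CL6G36 and 6 were lower, against 7.67% of all genes higher and 6.41% lower, and the median was -0.06. Hsph1, a nucleotide exchange factor of the HSP70 machine, was at 8.77 ± 0.15 in CL6G36 and 9.55 ± 0.08 in CL6G26, a difference of -0.78 ± 0.12 (adjusted p = 3.43e-05) without overlap. The HSP40 genes Dnajb1 and Dnaja1 differed by -0.38 ± 0.09 and -0.37 ± 0.09, and Hspd1, the mitochondrial chaperonin, by -0.15 ± 0.04. A second Dnajb1 probe set gave -0.08 and did not pass (limma, adjusted p = 0.636). Hspa8 and Hsp90aa1, constitutive cytosolic chaperones, differed by -0.38 and -0.24 and lost their calls under 12 and 8 of 21 alternatives. A pair of brighter Hspa8 probe sets, of the kind that can match several transcripts, gave -0.09 and -0.03 and did not pass (adjusted p = 0.473 and 0.89). The mitochondrial chaperone genes Hspa9 and Trap1 were higher by 0.40 ± 0.07 and 0.41 ± 0.09, and the cochaperone gene Bag3 by 0.43 ± 0.13, which did not pass without CL6G36 replicate 3 or CL6G26 replicate 5. With the deposited scaling 0 were higher and 5 lower.

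**Figure D3:**
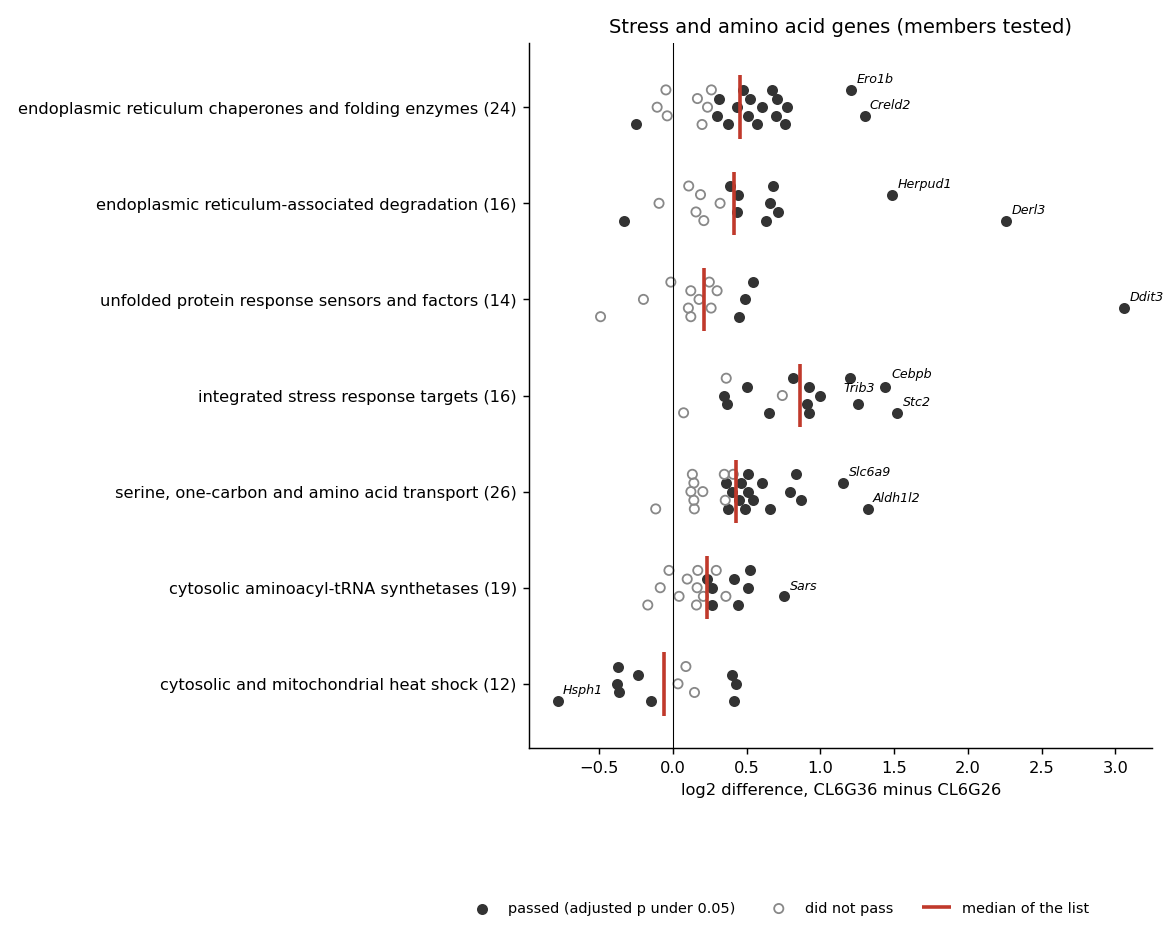
Log2 difference between CL6G36 and CL6G26 for every tested member of 7 gene lists (points; filled where the adjusted p was under 0.05), with the number tested in brackets and the median of each list as a red bar. Passing members lie to the right of 0 in the first 6 lists apart from 1 chaperone and 1 degradation gene, and on both sides of 0 among heat shock genes.

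Genes of Nodal and activin signalling, which maintain the epiblast and induce mesendoderm, were lower in CL6G36 where they passed, with 2 exceptions. Of 28 listed, 22 were tested, 6 were lower, 2 were higher and 14 did not pass, against 7.67% of all genes higher and 6.41% lower, with a median of -0.09, or -0.03 with signals under the floor raised to it. In the deposited scaling 0 were higher and 5 lower. Nodal, the ligand, read 9.12, 9.11, 9.38, 9.05 and 9.03 in CL6G36, against 10.10, 10.30, 10.00, 10.05 and 10.15 in CL6G26. CL6G36 was lower on every array, by -0.98 ± 0.12 (SE, adjusted p = 3.91e-07), and a second probe set gave -0.97. Tdgf1, the Nodal coreceptor Cripto, differed by -0.63 ± 0.10 (adjusted p = 5.46e-05) and Pcsk6, a protease that activates Nodal, by -0.77 ± 0.15. Pmepa1, a feedback gene of the pathway, differed by -0.88 ± 0.18, and the inhibitor Smad7 by -0.41 ± 0.12, a call lost without CL6G36 replicate 2 or 5 or CL6G26 replicate 3. The largest decrease was that of the antagonist Fst, described above. Foxh1, a DNA-binding partner of the Smads, and Inha, the inhibin subunit, were higher by 0.27 ± 0.09 and 0.50 ± 0.17, and lost their calls under 7 and 11 of 21 alternatives. The receptors Acvr1b, Acvr2a and Acvr2b and the effectors Smad2, Smad3 and Smad4 differed by -0.04 to 0.13 and did not pass.

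FGF ligands and genes induced by ERK were lower for 9 of the 22 tested, higher for 1, Spred2, and did not pass for 12, against 7.67% of all genes higher and 6.41% lower. The median was -0.13, or -0.01 with signals under the floor raised to it, when 6 were lower, and in the deposited scaling 0 were higher and 6 lower. Fgf8, a ligand of the primitive streak, read 6.50, 6.37, 5.81, 5.72 and 5.97 in CL6G36, against 7.98, 7.98, 7.82, 7.62 and 7.59 in CL6G26. Etv4, a transcription factor induced by FGF signals, read 5.68, 5.6, 4.81, 5.51 and 5.39 in CL6G36, against 6.70, 7.17, 6.95, 7.18 and 7.34 in CL6G26. Neither overlapped, and the differences were -1.72 ± 0.18 (adjusted p = 2.42e-08) for Fgf8 and -1.67 ± 0.14 (adjusted p = 9.31e-10) for Etv4. Fgf5, a ligand of the later epiblast, was at 5.10 ± 0.28 in CL6G36 and 6.21 ± 0.28 in CL6G26, a difference of -1.11 ± 0.15 (adjusted p = 4.79e-06). The ERK phosphatase gene Dusp6 differed by -0.47 ± 0.11, the feedback inhibitor gene Spred1 by -0.45 ± 0.14 and the immediate early gene Egr1 by -0.71 ± 0.25. Egr1 and the ligand gene Fgf4, at -0.40, lost their calls under 12 and 15 of 21 alternatives, and Spred1 without CL6G36 replicate 3 or CL6G26 replicate 5. Fos passed, but lay under the floor on all 10 arrays and has no fold here. The FGF receptors Fgfr1 to Fgfr4 differed by 0.01 to 0.43 and did not pass.

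Genes of the primitive streak and mesendoderm were lower for 9 of the 23 tested and higher for 0, against 6.41% of all genes lower. The list held 30 genes, and 14 of those tested did not pass. Its median was -0.42, or -0.27 with signals under the floor raised to it. The deposited scaling also gave 9 lower, and with signals raised to the floor 5. Mixl1, a homeobox gene of mesendoderm, read 3.86, 4.08, 4.60, 3.97 and 4.54 in CL6G36, against 6.57, 6.51, 6.38, 6.43 and 6.38 in CL6G26. It lay under the floor on all CL6G36 arrays and above it on all CL6G26 arrays, and was at least 3.59-fold lower (adjusted p = 5.64e-09). Foxa2, a forkhead factor of the node and endoderm, read 4.37, 5.19, 5.15, 4.88 and 4.95 in CL6G36, against 7.07, 6.91, 7.28, 6.97 and 6.87 in CL6G26. CL6G36 replicate 1 lay under the floor and was the lowest, the sublines did not overlap, and the difference was -2.11 ± 0.18 (adjusted p = 1.02e-09).

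Eomes, a T-box factor that specifies mesendoderm, read 7.70, 8.05, 7.77, 7.53 and 7.39 in CL6G36, against 8.85, 8.64, 8.82, 8.77 and 8.72 in CL6G26. CL6G36 was lower without overlap, by -1.07 ± 0.15 (adjusted p = 3.4e-06), and a second probe set gave -1.31. Aplnr, the apelin receptor of early mesoderm, fell to under the floor in CL6G36, at least 1.53-fold lower with adjusted p = 2.18e-05, and Nkx1-2, a homeobox gene of the tail-end epiblast, was at least 1.26-fold lower (adjusted p = 0.000105). Sp5, Cdx2 and Lhx1 passed, with 0 CL6G36 arrays above the floor and 4, 2 and 1 CL6G26 arrays above it. With signals raised to the floor Sp5, Cdx2 and Lhx1 differed by -0.38, -0.10 and -0.05 and did not pass, nor did Nkx1-2 at -0.34. Kdr, a VEGF receptor of early mesoderm, differed by -0.73 (adjusted p = 0.0486). Members that did not pass included Gsc, at -0.19, Gata6, at -0.42, and Mesp1, at -0.48.

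In the Wnt and Hippo pathways 3 of 25 tested genes were higher in CL6G36, 4 were lower and 18 did not pass, against 7.67% of all genes higher and 6.41% lower, with a median of 0.02. The deposited scaling gave 2 higher and 3 lower, with a median of -0.11. Axin2, a feedback target of Wnt signalling, read 6.37, 6.36, 6.27, 6.02 and 6.80 in CL6G36, against 7.51, 7.61, 7.50, 7.61 and 7.61 in CL6G26. It was lower in CL6G36 by a log2 difference of -1.21 ± 0.16 (adjusted p = 2.59e-06), and Wnt8a, a ligand of the streak, by -1.11 ± 0.30 (adjusted p = 0.00974), with 1 CL6G36 array above the floor. Sfrp1, a secreted Wnt antagonist, read 6.20, 6.77, 6.30, 6.31 and 6.27 in CL6G36, against 4.72, 4.71, 4.61, 4.33 and 4.05 in CL6G26. CL6G36 was higher on every array, by 1.89 ± 0.27 (adjusted p = 7.49e-06), or 1.72 with signals raised to the floor, and a brighter MOE430B probe set gave 1.08. Tcf7l1, a repressor of Wnt targets, was higher by 0.64 ± 0.14. The receptor gene Lgr4 differed by -0.28 and lost its call under 9 of 21 alternatives.

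Amot, which encodes the angiomotin scaffold that holds YAP at cell junctions, read 7.61, 7.34, 7.46, 7.16 and 7.24 in CL6G36, against 9.07, 9.05, 8.89, 8.81 and 8.88 in CL6G26. It was 2.98-fold lower in CL6G36, a difference of -1.58 ± 0.12 (adjusted p = 4.53e-11). Its other 2 probe sets gave -0.57 and -0.21, and the mean of the probe sets -0.78. Its relative Amotl1 was higher by 0.49 ± 0.11 (adjusted p = 0.00557), while Amotl2, Yap1, Ctnnb1 and Lef1 differed by 0.01 to 0.16 and did not pass. Wnt5b, a ligand outside the list, lay under the floor in CL6G36, at least 1.22-fold below CL6G26 (adjusted p = 7.96e-05). With signals raised to the floor it did not pass.

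Of 35 pluripotency and epiblast genes, 26 were tested, 4 were higher, 2 were lower and 20 did not pass, against 7.67% of all genes higher and 6.41% lower, with a median of 0.10, or -0.07 with the deposited scaling, under which 0 were higher and 2 lower. Sall3, a zinc finger gene, read 4.47, 4.15, 2.50, 3.14 and 3.04 in CL6G36, against 6.45, 6.14, 6.37, 6.04 and 6.54 in CL6G26. It was under the floor on all CL6G36 arrays and at least 3.24-fold lower (adjusted p = 6.69e-06). Its relative Sall1 was higher by 1.13 ± 0.38, with 0 CL6G26 arrays above the floor, and lost its call under 11 of 21 alternatives. A brighter Sall1 probe set gave 0.47 and did not pass. Dnmt3a, a DNA methyltransferase, was higher by 0.89 ± 0.18 (adjusted p = 0.000494). Pou3f1, an epiblast factor known as Oct6, was higher by 0.81 ± 0.24, a call lost without CL6G36 replicate 5 or CL6G26 replicate 1, and a second probe set gave 1.31 (adjusted p = 0.00605). Otx2, Esrrb, Sall4 and Tet1 differed by -0.15 to 0.12 and did not pass.

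**Figure D4:**
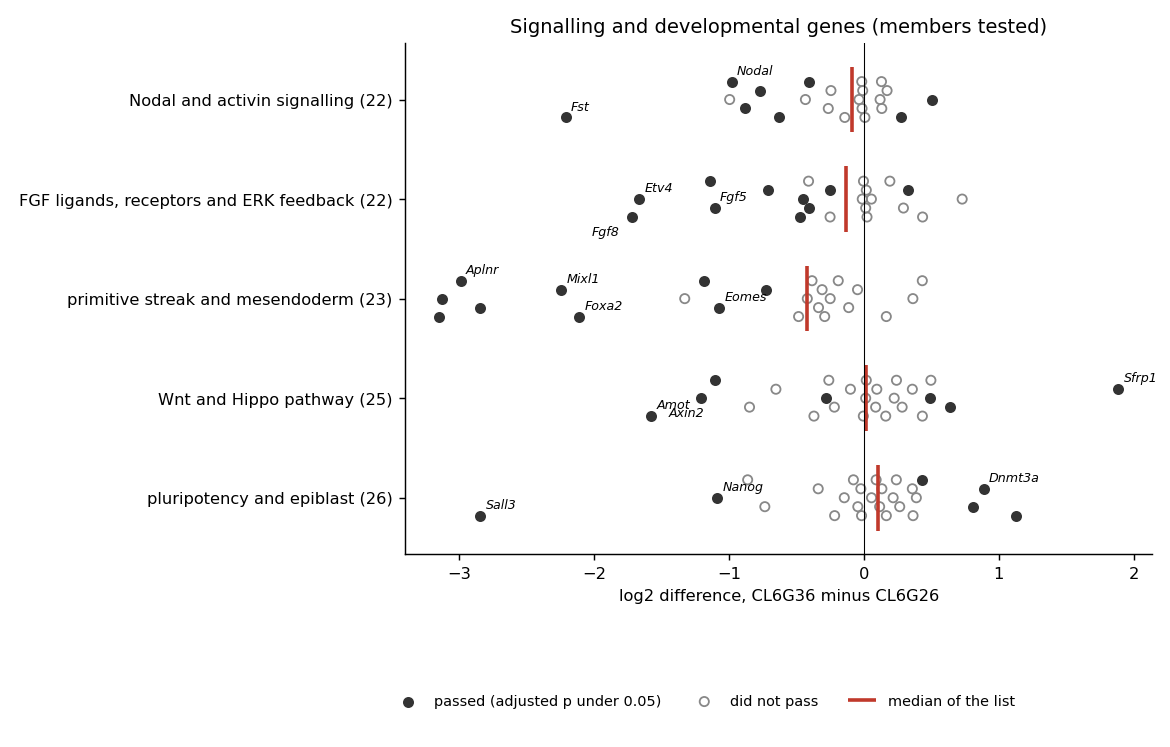
Log2 difference between CL6G36 and CL6G26 for every tested member of 5 lists of signalling and developmental genes (points; filled where the adjusted p was under 0.05), with the number tested in brackets and the list median as a red bar. In the primitive streak list the 9 passing members all lie to the left of 0; values beyond -2 include genes under the floor in CL6G36, whose size is not resolved.

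Several of the largest differences lay outside these pathways and marked CL6G36 against all 5 other strains. H2-DMa, a chaperone that loads MHC class II molecules, read 7.18, 7.29, 7.44, 6.91 and 7.01 in CL6G36, against 4.86, 5.30, 5.95, 5.00 and 5.13 in CL6G26. The difference was 1.92 ± 0.16 (adjusted p = 5.15e-10), and the other 5 strain means ran from 5.12 to 5.27. Gpr37, an orphan receptor, read 6.83, 6.53, 6.36, 6.76 and 6.65 in CL6G36, against 1.61, 0.55, 0.46, 2.82 and 2.48 in CL6G26. It was at least 4.03-fold higher in CL6G36 (adjusted p = 9.29e-05), and the 5 other strain means were 0.98 to 2.52, under the floor.

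Jcad, a gene of endothelial cell junctions, read 6.80, 6.70, 6.78, 6.81 and 6.99 in CL6G36, against 5.46, 4.97, 5.00, 4.81 and 5.01 in CL6G26. It differed by 1.77 ± 0.18 (adjusted p = 6.13e-08), with the 5 other strain means at 4.95 to 5.34. Sorcs2, a sorting receptor for neurotrophin precursors, was higher by 1.90 ± 0.33 (adjusted p = 9.27e-05), and Tmem59l, a membrane protein gene, was lower, at -1.85 ± 0.16 (adjusted p = 7.13e-10). Sorcs2 and Tmem59l also lay beyond the 5 other strain means, at 7.45 against 4.84 to 5.80 and at 5.48 against 6.61 to 7.81.

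The remaining increases named by size were Rps27, a ribosomal protein gene, at 1.74 ± 0.26, Amdhd2, an amino sugar deacetylase, at 1.56 ± 0.19, Anxa2, an annexin, at 1.55 ± 0.18, and Hnrnpa1, an RNA-binding protein, at 1.53 ± 0.12. A brighter Hnrnpa1 probe set gave 0.71. The second probe set of Anxa2 was under the floor, and the mean of both did not pass. The probe sets of Rps27, Hnrnpa1 and Igha may read several copies of these gene families, so those values are uncertain. The remaining decreases were those of Rab38, a GTPase of lysosome-related organelles, at -1.63 ± 0.20 (-0.93 on a brighter probe set), Nefl, the light neurofilament, at -1.58 ± 0.13, and Sgk1, a kinase induced by serum, at -1.56 ± 0.15. In all 7 genes CL6G36 and CL6G26 did not overlap, which was a condition for naming a gene by size.

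Other genes stood out through CL6G26. Plin2, a coat protein of lipid droplets, read 6.01, 5.90, 5.79, 5.94 and 6.14 in CL6G36, against 3.30, 3.86, 2.07, 4.14 and 2.35 in CL6G26. It was under the floor on every CL6G26 array, and at least 2.54-fold higher in CL6G36 (adjusted p = 7.97e-09). The means of the strains other than CL6G26 ran from 5.96 to 6.68. Irx5, a homeobox gene, read 4.49, 3.81, 3.74, 4.29 and 4.05 in CL6G36, against 7.0, 6.56, 6.95, 6.73 and 6.81 in CL6G26. It was at least 4.59-fold lower in CL6G36 (adjusted p = 2.01e-09), and the strains other than CL6G26 had means from 3.73 to 4.95.

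Lipid genes were higher in CL6G36 for 6 of the 19 tested and lower for 0, against 7.67% of all genes higher and 6.41% lower, with a median of 0.22. Lpl, lipoprotein lipase, read 7.78, 7.79, 7.82, 7.83 and 8.01 in CL6G36, against 6.21, 6.68, 6.34, 6.51 and 6.53 in CL6G26. CL6G36 was higher throughout, by 1.39 ± 0.13 (adjusted p = 7.57e-09), and a second probe set gave 1.02. The fatty acid binding protein genes Fabp3 and Fabp5 were higher by 0.78 ± 0.08 and 0.54 ± 0.08, the acyltransferase gene Dgat1 by 0.39 ± 0.10 and Plin3, another droplet coat protein, by 0.28 ± 0.08. The deposited scaling passed 3.

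Genes of a list of lysosomal proteins and galectins were higher for 9 of the 24 tested, lower for 1 and did not pass for 14. Of all genes 7.67% were higher and 6.41% lower. The list median was 0.30, or 0.23 with signals under the floor raised to it. Ctsc, a lysosomal cysteine protease, read 6.70, 7.01, 6.51, 6.82 and 6.44 in CL6G36, against 1.43, 1.34, 3.91, 3.13 and 2.91 in CL6G26. It was under the floor on all CL6G26 arrays and at least 4.24-fold higher in CL6G36 (adjusted p = 1.49e-08). The peptidase genes Ctsa and Tpp1 were higher by 1.0 ± 0.11 and 0.89 ± 0.10, the membrane protein gene Lamp1 by 0.65 ± 0.05 and the protease gene Ctsd by 0.50 ± 0.09. For Ctsa a dimmer probe set, on MOE430B, gave -0.02 and did not pass (limma, adjusted p = 0.978). Grn, the progranulin gene, was higher by 0.42 ± 0.13, which did not pass without CL6G36 replicate 3 or CL6G26 replicate 1 (0.70 and 0.69 on brighter probe sets, both passing), and Npc1, a cholesterol exporter, by 0.39 ± 0.13, which did not pass without CL6G36 replicate 1 or CL6G26 replicate 4 or 5. Gla, a galactosidase, was lower, at -0.47 ± 0.14, a call lost without CL6G36 replicate 2 or CL6G26 replicate 1 or 2. The deposited scaling gave 3 genes of this list higher and 0 lower.

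Tmem45a, a membrane protein gene, and Apobec1, a cytidine deaminase, were at least 1.66-fold and 1.87-fold higher in CL6G36 (adjusted p = 1.26e-06 and 2.13e-05). Both lay under the floor on all CL6G26 arrays. Igha, at least 1.38-fold higher (adjusted p = 0.000766), was read from another probe set with no filter and then differed by -0.22.

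**Figure D5:**
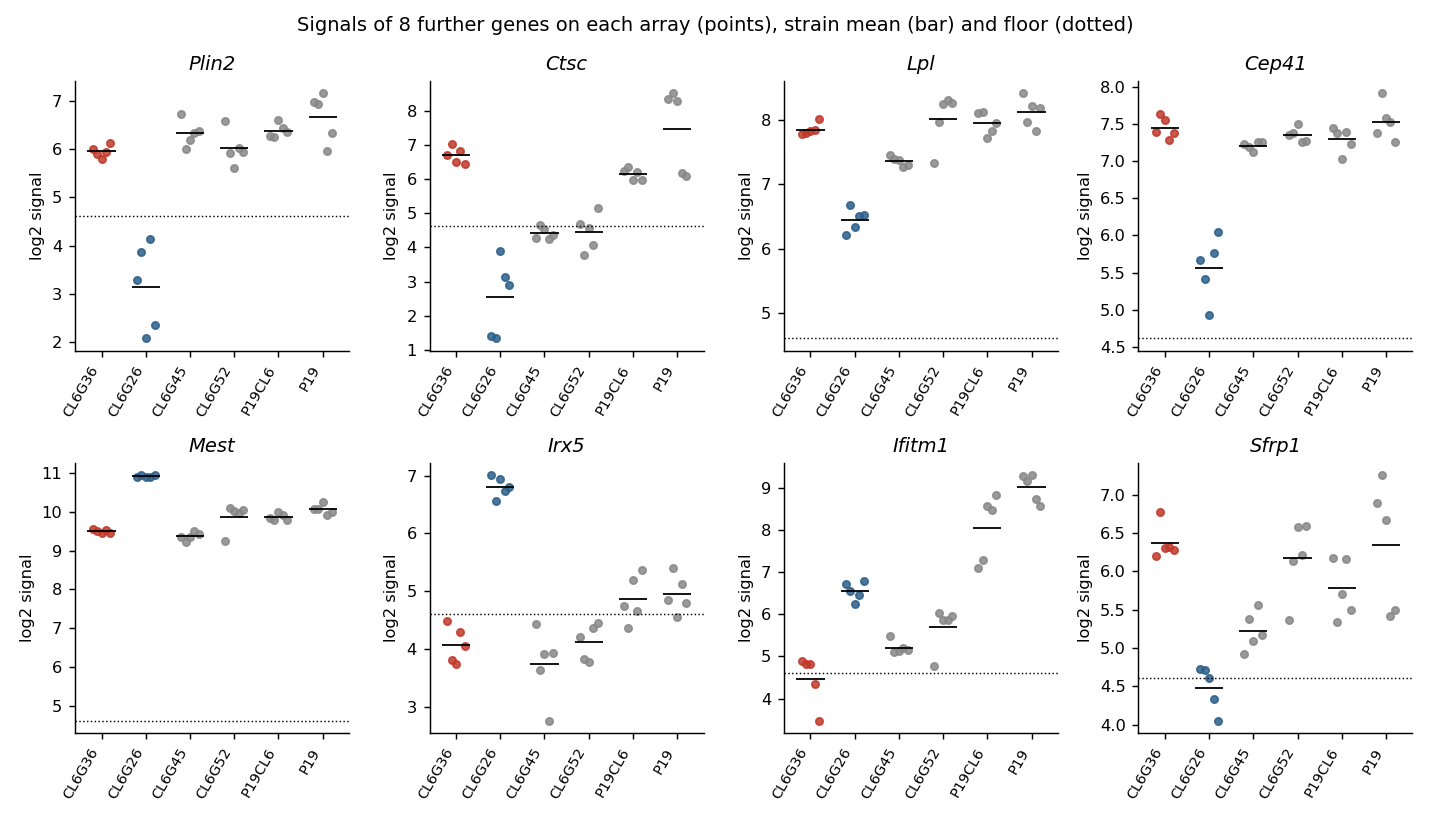
Log2 signal of 8 further genes on each array (points) in CL6G36, CL6G26 and the other 4 strains, with the strain mean as a bar and the floor as a dotted line; vertical axes differ between panels. CL6G26 stands apart from the other strains for Plin2, Cep41, Mest and Irx5, and for Ctsc and Ifitm1 the other strains spread widely.

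Imprinted genes, expressed from the copy of 1 parent, were higher for 4 of the 23 tested, lower for 3 and did not pass for 16, against 7.67% of all genes higher and 6.41% lower, with a median of 0.15. Under the deposited scaling 1 was higher and 3 were lower. Mest, expressed from the paternal copy, read 9.56, 9.51, 9.45, 9.53 and 9.46 in CL6G36, against 10.89, 10.94, 10.90, 10.91 and 10.94 in CL6G26. CL6G36 was lower on every array, by a log2 difference of -1.41 ± 0.10 (adjusted p = 1.44e-11). Cep41, a centrosomal protein gene and the neighbour of Mest on one side, read 7.40, 7.63, 7.56, 7.29 and 7.37 in CL6G36, against 5.67, 5.41, 4.93, 5.77 and 6.04 in CL6G26. It differed in the opposite direction, at 1.88 ± 0.14 (adjusted p = 2.52e-11), and a MOE430B probe set gave 1.95. Copg2, the neighbour on the other side, a coat protein of retrograde vesicles, read 7.54, 7.81, 7.69, 8.07 and 7.89 in CL6G36, against 7.39, 7.48, 7.18, 7.47 and 7.20 in CL6G26. Its values did not overlap either, and it was higher in CL6G36 by 0.46 ± 0.12 (adjusted p = 0.00505). Farther along on the Copg2 side, Klf14, Mkln1 and Podxl differed by -0.02, 0.27 and 0.22, and on the Cep41 side Cpa4 and Ssmem1 differed by -1.48 and -0.57. None of these 5 passed.

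Beyond this locus, Phlda2, a maternally expressed growth inhibitor, was lower, at -0.66 ± 0.18, and Peg3, a paternally expressed zinc finger gene, at -0.44 ± 0.12. Gnas, which encodes the stimulatory G protein subunit, was higher by 0.39 ± 0.05, and Plagl1, a zinc finger gene, by 1.04 ± 0.36, with its sublines overlapping and the call lost under 9 of 21 alternatives. That probe set was dim, at 5.45 in CL6G36 and 4.40 in CL6G26, and a bright one, at 10.91 in CL6G36 and 10.32 in CL6G26, gave 0.60 (adjusted p = 0.000579). Igf2, Igf2r and Snrpn differed by 0.33, 0.11 and 0.10 and did not pass.

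Among MHC, antigen processing and interferon genes 1 of 20 tested was higher, H2-DMa, 3 were lower and 16 did not pass, against 7.67% of all genes higher and 6.41% lower, with a median of -0.09. Ifitm1, an interferon-induced membrane protein, read 4.90, 4.82, 4.83, 4.35 and 3.48 in CL6G36, against 6.72, 6.54, 6.24, 6.47 and 6.80 in CL6G26. CL6G36 was lower without overlap and above the floor on 3 of 5 arrays, with a log2 difference of -2.08 ± 0.28 (adjusted p = 3.4e-06). Psmb10, an immunoproteasome subunit, and Tapbp, which loads MHC class I, differed by -0.55 ± 0.14 and -0.55 ± 0.16. Cd74, the class II invariant chain, differed by -0.22 without passing, and the class I genes H2-K1, H2-D1 and B2m differed by -0.09, 0.17 and -0.09 without passing.

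Cell cycle genes differed by -0.51 to 0.38. Of 29 tested, 2 were higher, 5 were lower and 22 did not pass, against 7.67% of all genes higher and 6.41% lower. The median was -0.07, and the deposited scaling gave 0 higher and 3 lower. Cdk4, a G1 kinase, was higher by 0.38 ± 0.07, and Mad2l1, of the spindle checkpoint, was lower, at -0.51 ± 0.09 (adjusted p = 0.000154). Cdk1, the mitotic kinase, differed by -0.24 ± 0.07. The other 4 that passed, Ccnd3, Aurka, Ccnb2 and Pcna, differed by -0.25 to 0.32 and lost their calls under 4 to 11 of 21 alternatives. Of 34 cardiac and smooth muscle genes 17 were tested and 2 passed, both higher in CL6G36, where 7.67% of all genes were higher. Acta2, smooth muscle actin, and Tagln, an actin-binding protein, differed by 0.47 ± 0.16 and 0.89 ± 0.27, and lost their calls under 8 and 4 of 21 alternatives, the deposited scaling among them. The cardiac factors Nkx2-5, Tbx5 and Tbx20 differed by -0.20 to 0.18 and did not pass.

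Markers of other cell types were few and mixed. Of 12 neural markers 7 were tested, with 1 higher and 1 lower, against 7.67% of all genes higher and 6.41% lower. Nes was higher by 0.32 ± 0.09. Map2 was lower, but lay under the floor on all CL6G36 arrays and 3 of 5 CL6G26 arrays. It lost its call under 13 of 21 alternatives. Of 14 endoderm markers 9 were tested, with 1 higher and 0 lower against the same shares. That gene was Sparc, at 0.45 ± 0.14, a call lost without CL6G26 replicate 4. The endoderm median was -0.34, or -0.11 with signals under the floor raised to it. Without overlap 3 endoderm markers were lower and 1 higher, against 5.83% and 7.24% of all genes. The fit on CL6G36 and CL6G26 alone passed 3 as lower and 1 as higher. Of 12 fibroblast markers 6 were tested, with a median of 0.09. Vim was higher by 0.41 ± 0.09 and Fn1 lower, at -0.60 ± 0.14, against the same shares. The summed linear signal of the tested neural markers ran from 429.4 to 518.3 in CL6G36 and from 423.1 to 488.3 in CL6G26, that of endoderm markers from 1929 to 2183 in CL6G36 and from 1818 to 2071 in CL6G26, and that of fibroblast markers from 1931 to 2432 in CL6G36 and from 1720 to 1943 in CL6G26. These ranges overlapped. Defining markers such as Pax6, Afp, Ttr, Col1a1, Col3a1 and Postn did not pass the filter on dim probe sets. The part of these cell types in the differences above was not tested. In such bulk samples a change in the share of cells and a change of RNA per cell cannot be told apart.

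The strain means placed the called genes beside P19CL6, from which both sublines derive. For 145 of the 195 genes the P19CL6 mean lay nearer to CL6G26 than to CL6G36, and for 50 it lay nearer to CL6G36. Among the 105 genes higher in CL6G36 it was nearer to CL6G26 for 66, and among the 90 lower genes for 79. The CL6G45 mean lay nearer to CL6G36 for 129 of the 195 and the CL6G52 mean for 93. These are counts of means, with no test, on genes chosen for their difference between CL6G36 and CL6G26. The spread within a subline was similar, with a median SD over genes of 0.22 in CL6G36 and 0.20 in CL6G26.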

How the data were processed

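Total RNA was labelled as biotin cRNA and hybridised to Affymetrix MOE430A and MOE430B arrays. The deposited values are signal intensities per probe set made by the authors with GCOS, per the submitters' processing notes, with a scaling target that the sources used here do not give. Probe sets were named from the platform annotation. Signals, without those of control probe sets, were quantile normalized within each array type over its 30 arrays. Values then under 1 were set to 1, and all were taken to log2. The log2 values therefore start from the deposited intensities, and probe-level files were not used here.

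Testing required a probe set to exceed the floor, the 40th percentile on MOE430A and the 60th on MOE430B, on at least 5 of 30 arrays. A gene was read from 1 probe set, the brightest by its mean over 30 arrays among those on MOE430A, or on MOE430B where MOE430A had none, with probe sets that can match several transcripts (suffix x) used only where that array type had no other. Dimmer probe sets were therefore read for some genes. R 4.3.3 and limma 3.58.1 were used, with 1 mean per strain, empirical Bayes moderation with a trend, and Benjamini-Hochberg adjustment within each array type. A gene was called at an adjusted p under 0.05 and at least 2-fold. A fold bound is the brighter group's mean against the floor, where every array of the other group lay under it. The fit was tested on simulated data.

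Genes named are the 10 largest increases and 10 largest decreases among called genes without overlap that exceeded the floor on all 10 arrays. For these genes the lack of overlap between CL6G36 and CL6G26 was thus a condition of the choice and not a separate result. The 6 bounds each way with the smallest adjusted p, the markers, and up to 8 passing members of each list are also named. A further 20, and non-passing list members, were chosen after their values were seen. The members and lists were chosen with earlier results of these data known. The labels do not say that replicate numbers pair the samples, and no pairing was used in the main fit. Correlations of same-numbered deviations were between -0.06 and 0.11 on MOE430A, and between -0.03 and 0.05 on MOE430B. Alternatives changed the scaling, filter, floor, probe-set rule, fit and replicates.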

Additional observations from a re-analysis of the deposited data

Results flagged for a closer look

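For each named gene the values of the 5 arrays of CL6G36 and of CL6G26 were examined for an array far from the other 4 of its group, by Dixon's test at its 95% critical value. Of 340 groups 23 were past it, and chance alone gives about 1 in 20.

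In CL6G36, replicate 5 was low for Snx7, at a log2 signal of 5.40, and high for Lpl, at 8.01, and for Tcf7l1, at 9.21. Replicate 3 was high for Nodal at 9.38, Grn at 8.35 and Tapbp at 6.55, and low for Sparc at 10.24. Replicate 1 was low for Atf5 at 7.90 and Wnt5b at 0.56, and high for Lgr4 at 8.82. Replicate 2 was high for Sfrp1 at 6.77 and low for Zfas1 at 10.14.

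In CL6G26, replicate 5 was low for Ddit3 at 4.72, Eprs at 9.19 and Pdia4 at 7.46, and high for Tmem45a at 3.08. Replicate 3 was high for Dgat1 at 7.10, Ctsa at 8.19 and Foxh1 at 8.83, and low for Mad2l1 at 8.84. Replicate 1 was high for Herpud1 at 8.17, replicate 2 was high for Lin28a at 10.94, and replicate 4 was low for Inha at 4.54. The Wnt5b, Tmem45a and Inha values lay under the floor.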

How the results depend on the processing

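The counts of 105 genes higher and 90 lower in CL6G36 stayed within 1.5 times under 21 alternatives, except that raising signals to the floor left 70 higher and 56 lower. The deposited scaling passed 721 genes by adjusted p alone, against 1856, while centring its arrays on their medians, chosen after the data were seen, passed 1790. Leaving out 1 replicate gave 94 to 109 higher and 81 to 100 lower. The replicate block gave 105 higher and 86 lower, with 1784 passing, and ended the calls of Fgf4, Hsp90aa1 and Pcna. In the pairing check an array correlated best with its own number in 2 of 5 numbers on each array type. Of the 164 named genes that passed, 79 kept their call and direction under every alternative and 84 lost the call under at least 1, the deposited scaling ending 69. Fos turned to 0.000235 with signals raised to the floor, Igha to -0.22 with no filter and Vars to -0.023 with the deposited scaling. Dim probe sets limit what can be sized: genes under the floor have only a bound, and small differences depend on the scaling, which moved the median of all genes to -0.11 in the deposited values.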

Other observations

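Genes outside the lists were picked after their values were seen and are given as values. Among them log2 differences were -1.53 ± 0.17 for Ret, the GDNF receptor (SE), -1.23 ± 0.12 for Epha1 and -1.12 ± 0.14 for Epha2, ephrin receptors, -1.43 ± 0.34 for Wnt7a and -1.19 ± 0.14 for Wnt11. Trh, thyrotropin-releasing hormone, read 1.18, 2.27, 1.67, 1.81 and 1.91 in CL6G36, against 5.75, 6.04, 5.40, 6.03 and 5.88 in CL6G26. It was under the floor on all CL6G36 arrays and at least 2.31-fold lower, limma adjusted p = 0.00272, over alternatives 1.06e-06 to 0.356. Meis2, a homeobox gene, was at least 1.26-fold lower and did not pass with signals raised to the floor, adjusted p = 0.198. A brighter Meis2 probe set gave -0.92.

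Retinoid genes differed in opposite directions. Cyp26a1, which degrades retinoic acid, differed by -1.60 ± 0.38, or -1.15 with signals raised to the floor, and Crabp2, which carries it to the nucleus, by 1.48 ± 0.27. Bhlha15, a factor of secretory cells, was higher by 1.48 ± 0.30, or 1.13 with signals raised to the floor, and Calcr, the calcitonin receptor, by 1.46 ± 0.27. The other Bhlha15 probe set, with both subline means under the floor, gave 0.03 and did not pass. The small nucleolar RNA host genes Snhg12 and Zfas1 were higher by 1.31 ± 0.20 and 1.30 ± 0.21. Asns, asparagine synthetase, a known ATF4 target, was higher by 0.35 ± 0.08 only. Unlike the other genes here it is a list member, counted above among the integrated stress response targets. What underlies these differences was not tested.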
